A study of Mus musculus with 18 samples.

Results

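Regulatory T cells (Tregs) sorted from a healing defect of the skull were compared with Tregs sorted from healing punch wounds of the skin. The comparison used 6 of the 18 libraries of the series, 3 of bone and 3 of skin, picked by their labelled tissue. All mice were males of the Foxp3(DTR/GFP) strain aged 10 weeks, a line in which a green fluorescent protein and a diphtheria toxin receptor are expressed from the Foxp3 gene, so that Tregs can be sorted by colour. Each mouse had 1 injury. The bone group had a calvarial bone defect and the skin group full-thickness punch biopsies. Tissue was taken on day 7, and every bone or skin library was pooled from 3 mice. Tregs of uninjured spleen gave 6 further libraries, and Tregs of quadriceps muscle on day 7 after volumetric loss gave 3 that are used here as a reference. Only bone replicate 1 has a label that ties a column to it. The other 2 bone columns are called b and c.

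The library names come in 2 styles, and the styles differ between the 2 tissues. All bone and muscle libraries carry "Tregs" in their names, all skin libraries carry "Endo", and the spleen has 3 of each: replicates 1 to 3 Endo, replicates 4 to 6 Tregs. What the styles stand for is not given in the sources used here. Bone and skin can therefore differ by tissue, by naming style, or by both, and only the spleen has both styles. Each difference below is adjusted, which subtracts the Tregs minus Endo difference of the spleen from bone minus skin, unless it is called unadjusted. This takes the spleen difference to hold in bone and skin too, which was not tested. Small RNA genes took 4.71% to 7.4% of counts in spleen of Tregs style and 1.63% to 3.06% in Endo style. Their share was 0.843% to 1.03% in bone and 0.88% to 1.25% in skin. Unadjusted values come from the same 15 libraries fitted without the style, and genes named as passing also passed there unless stated. A fit of the 6 bone and skin libraries alone, likewise unadjusted, is named where it is used. A difference is on the log2 scale, positive where bone was higher, with its standard error (SE). Levels are counts scaled to library size (CPM, TMM-scaled), not adjusted for style. A gene passed where its Benjamini-Hochberg adjusted p was under 0.05 in edgeR's quasi-likelihood test over 15617 genes.

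Tregs are CD4 T cells that express the transcription factor Foxp3 and restrain immune responses. Those resting in lymphoid organs keep genes of naive T cells, among them the transcription factors Tcf7, Lef1 and Bach2. Those that settle in tissue lose these genes and take up an effector programme with the factors Batf, Irf4, Prdm1 and Nfil3, the chemokine receptor Ccr8, the IL-33 receptor Il1rl1 and the growth factor amphiregulin (Areg), which acts on epithelium. In skin, Tregs are known for living beside hair follicles and aiding wound closure, and in bone for restraining osteoclasts, the cells that resorb bone.

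Total counts ran from 11588253 to 22635760 in bone and from 8375212 to 11907745 in skin, while the spleen held 5970346 to 7230842 in Endo style and 13873680 to 15756884 in Tregs style. The long noncoding gene Yam1 took the largest share of every library used, 3.24% to 4.47% in bone and 6.7% to 11.8% in skin. The 8 genes that mark CD4 T cells and Tregs summed to 6100 to 6940 CPM in bone and 8500 to 8840 in skin, so that the markers of the sorted cell type were high in both. Of 14 bone cell markers, 8 were at 0 in bone and 7 in skin, with Bglap, Ibsp, Sp7, Dmp1 and Sost at 0 in both. Runx2, Alpl and Spp1 had counts in both tissues. The bone cell list summed to 232 to 239 CPM in bone, 181 to 222 in skin and 105 to 138 in spleen. The keratinocyte list summed to 21 to 27.7 CPM in bone, where 8 of 12 markers were at 0, and to 29.9 to 36.3 in skin, where only Krt1 was. The B cell list summed to 59.7 to 83.8 CPM in bone, 11.8 to 13.8 in skin and 49 to 144 in spleen. Of its 11 genes, 7 were higher in bone without adjustment and 1, Ms4a1, with it (8.76% and 3.56% of all genes). In the endothelial list 1 of 5 tested genes passed for bone, Pecam1 (0.93 ± 0.17), and in the bone cell list 1 of 6, Acp5 (0.93 ± 0.25). The share of all genes was 3.56%.

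Of all genes tested, 1267 passed in the adjusted comparison (8.11%). Of these, 556 were higher in bone (3.56%) and 711 higher in skin (4.55%). Without adjustment 2814 passed (18%), and 904 genes passed in both with the same direction (5.79%), 442 higher in bone (2.83%) and 462 higher in skin (2.96%). The spleen alone differed between styles at 741 genes (4.74%), of which 482 were higher in Tregs style (3.09%) and 259 in Endo style (1.66%). Among the 1267, the spleen difference passed for 203, and for 26 the unadjusted difference had the other sign. In 43% of all genes tested the 3 bone and the 3 skin libraries did not overlap. The scatter of the unadjusted difference against the spleen difference shows which genes the adjustment decides.

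**Figure D1:**
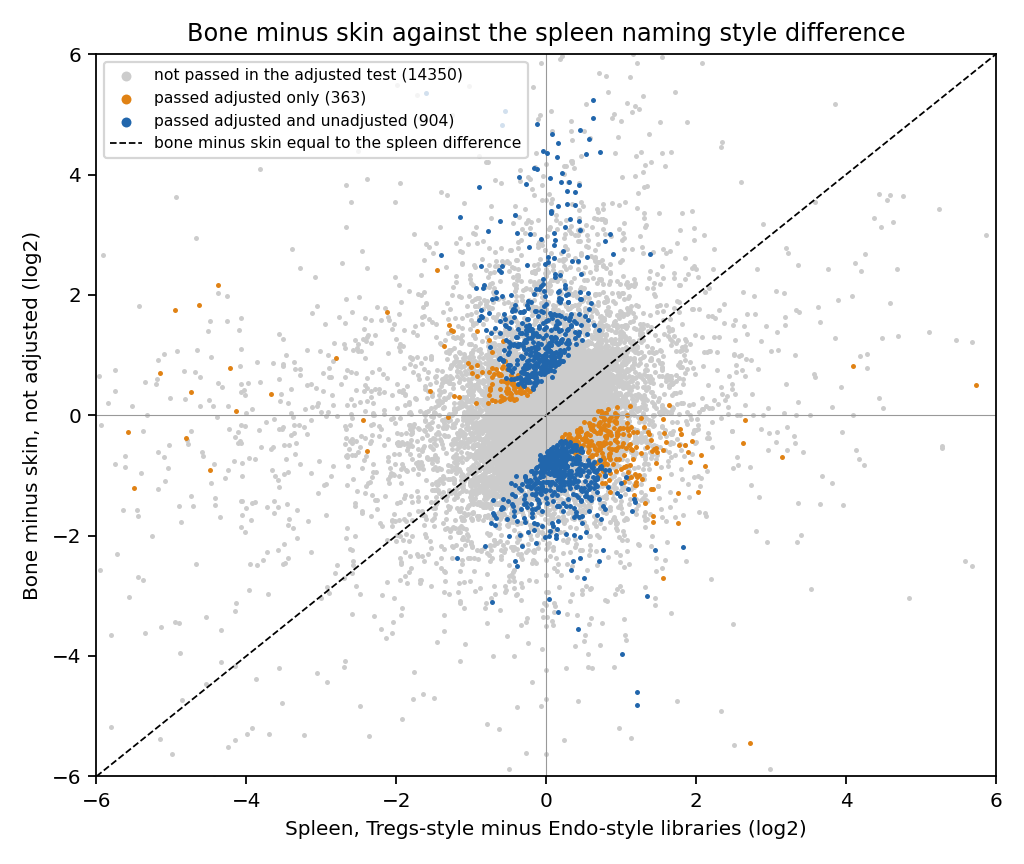
Each point is 1 of 15617 genes: the difference between spleen libraries of the Tregs and Endo styles (x, log2) and bone minus skin without adjustment (y, log2), with 128 genes beyond the axes. The 904 genes that passed both ways lie away from the dashed line of equality on either side, and the genes that passed only after adjustment lie mostly where the spleen difference has the opposite sign or is as large as bone minus skin.

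A total of 772 genes (4.94% of those tested) passed both ways, had a mean log2 CPM of 3 or more, did not overlap and had a spleen style difference that was small beside theirs or of the other sign. After clone-named, antigen receptor and sex-linked marker genes were left out, 691 were ranked. The 12 highest in bone included several known from resting lymphocytes, and for each of them skin lay further below spleen than bone did. P2rx7, a receptor for extracellular ATP (chr5:122643911-122691432, GRCm38, plus strand), counted 75.5, 100.5 and 99.1 CPM in bone against 1.92, 7.58 and 1.27 in skin. The spleen had 155, 176 and 202 in Tregs style and 164, 149.8 and 191 in Endo style. Bone levels thus lay below spleen, and skin far below both, with no overlap. Bone against spleen did not pass (-0.95, adjusted p = 0.099). The adjusted bone minus skin difference was 4.60 ± 0.57 (adjusted p = 0.00053), a 24.2-fold difference, and the spleen styles differed by 0.08. Bcl2, which blocks apoptosis (chr1:106538178-106714274, minus strand), counted 73.5, 83.2 and 101 CPM in bone and 2.93, 6.56 and 6.63 in skin, a difference of 3.82 ± 0.29 (adjusted p = 5.1e-08). Its muscle libraries, of the same naming style as bone, lay between the 2 tissues at 18.2, 12.8 and 16.2. Tcf7, a transcription factor of naive and memory T cells (chr11:52252371-52283014, minus strand), counted 145, 198 and 196 CPM in bone and 15.3, 17.4 and 14.4 in skin. That is a 9.38-fold difference (log2 3.23 ± 0.24, adjusted p = 2.3e-08), while spleen held 496, 448 and 475 and 419, 404 and 344 in its 2 styles.

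Bach2, a repressor that holds T cells back from effector states, counted 51.3, 49 and 50.9 CPM in bone, 2.47, 8.26 and 4.08 in skin and 126 to 166 in the 6 spleen libraries. The difference of 3.31 ± 0.41 passed (adjusted p = 0.00013). The other genes among the 12 highest in bone ran the same way. The zinc finger gene Zfp827 differed by 3.68 ± 0.32, the nuclear factor Aff3 by 3.10 ± 0.30, Card6 by 2.92 ± 0.39 and the transcriptional cofactor Ssbp2 by 2.88 ± 0.32. The bacterial sensor Nod1 differed by 2.79 ± 0.45, the actin regulator Evl by 2.73 ± 0.29 and Btbd11 by 2.52 ± 0.46. For all 12 genes the spleen style difference did not pass, between -0.01 for Btbd11 and 0.46 for Itga4. Ssbp2 shares 22.1% of its exonic bases with an antisense gene and Evl 9.46% with Degs2 on the other strand. Genes named further on share exonic bases with the other strand too, among them Snx11 (16.2%), Cdc42bpb (13.7%), Cox5a (12.8%) and Rhbdd2 (9.77%). The strand setting of the counting is not given in the sources used here, so reads of such pairs cannot be told apart. In bulk RNA, fewer cells of a kind and less RNA per cell cannot be told apart either.

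**Figure D2:**
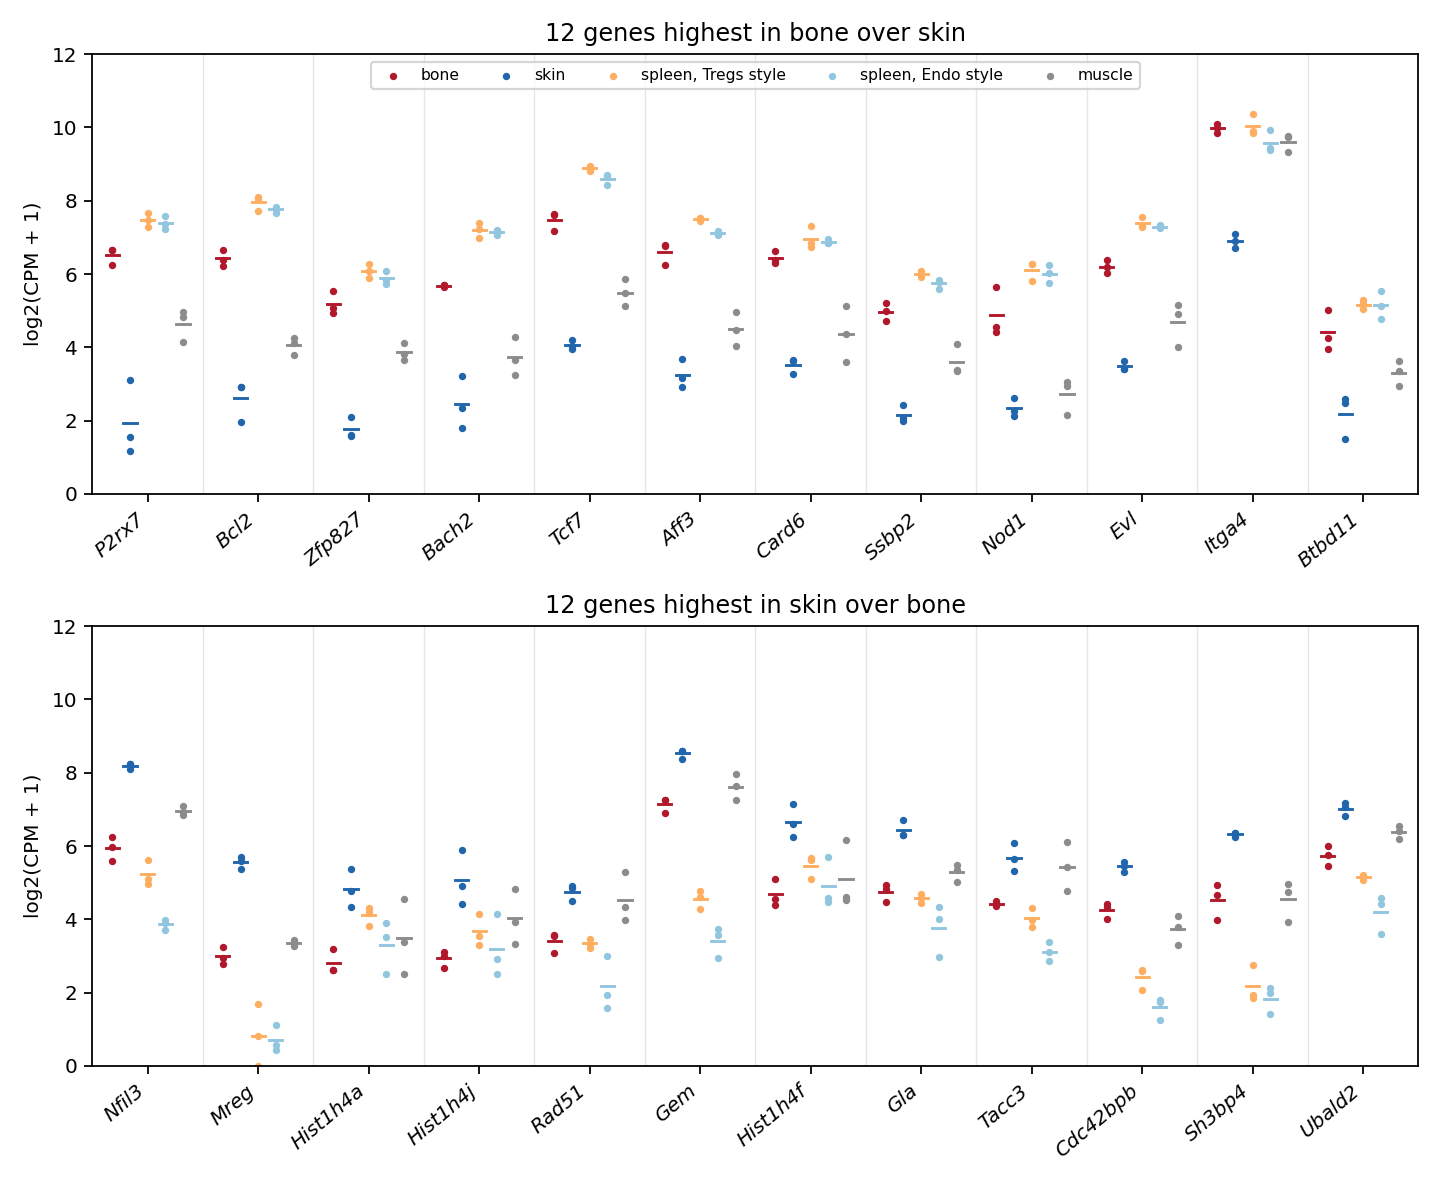
Level of each gene on a log2(CPM + 1) axis for the 12 genes highest in bone over skin (top) and the 12 highest in skin over bone (bottom); a point is 1 library, a bar the mean of its group's points. In the top panel the mean of skin is the lowest for every gene. Bone lies beside or somewhat below spleen, as for Itga4 at 926, 1010 and 1095 CPM. In the bottom panel the mean of skin is the highest for every gene.

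Genes of naive and lymphoid T cells as a list went the same way. Of 25 tested, 15 were higher in bone and 0 in skin by edgeR's adjusted test, against 3.56% of all genes for bone. Without adjustment 18 were higher in bone and 0 in skin (8.76% and 9.26% of all genes). The median difference of the list was 1.28, beside 0.05 over all genes tested. Klf2, which drives exit from lymphoid tissue, counted 288, 263 and 345 CPM in bone and 103, 122 and 115 in skin (1.23 ± 0.26, adjusted p = 0.0055). Klf3 differed by 2.17 ± 0.22, the adhesion link Actn1 by 1.91 ± 0.25, the Notch regulator Dtx1 by 1.72 ± 0.31, Id3 by 2.46 ± 0.50 and Lef1 by 0.68 ± 0.20, all passing.

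Some large differences of the list were in genes of low level. Igfbp4, which binds insulin-like growth factors, counted 4.72, 3.5 and 3.33 CPM in bone and 0.0915, 0.226 and 1.02 in skin (3.84 ± 0.70, adjusted p = 0.0024). Treml2 counted 22.7, 21.1 and 14.2 CPM in bone and 0.366, 2.04 and 2.17 in skin (3.45 ± 0.60, adjusted p = 0.0025). Cxcr5, the receptor that leads T cells to B cell follicles, counted 14, 23.1 and 30.6 and 0.64, 3.06 and 2.93 (3.33 ± 0.70, adjusted p = 0.011). For these 3 genes the groups did not overlap, and the spleen had 39 CPM or more in each library. Not every naive gene followed. Ccr7, the receptor for lymph node chemokines, counted 67.9, 70.9 and 78.1 CPM in bone and 60.2, 54.3 and 64 in skin (0.99 ± 0.62, adjusted p = 0.39), and Satb1 and Il7r did not pass (-0.55 ± 0.23 and -0.57 ± 0.27). Against spleen, 21 of the 25 were lower in bone and 24 in skin (6.32% and 12.8% of all genes). In tests against spleen, bone is set against Tregs-style spleen and skin against Endo-style spleen. The B cell list moved with this one, at 59.7 to 83.8 CPM summed in bone and 11.8 to 13.8 in skin, and B cells also express Bcl2, Bach2 and Cxcr5. Its part in the result was not tested. Without spleen replicates 1 and 2, which are richest in ribosomal RNA, 10 of the list passed for bone and 0 for skin. Without spleen 6 the counts were 14 for bone and 2 for skin. The 6 bone and skin libraries alone gave 19 and 1 of 24 tested, against 14.9% and 16% of all genes.

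**Figure D3:**
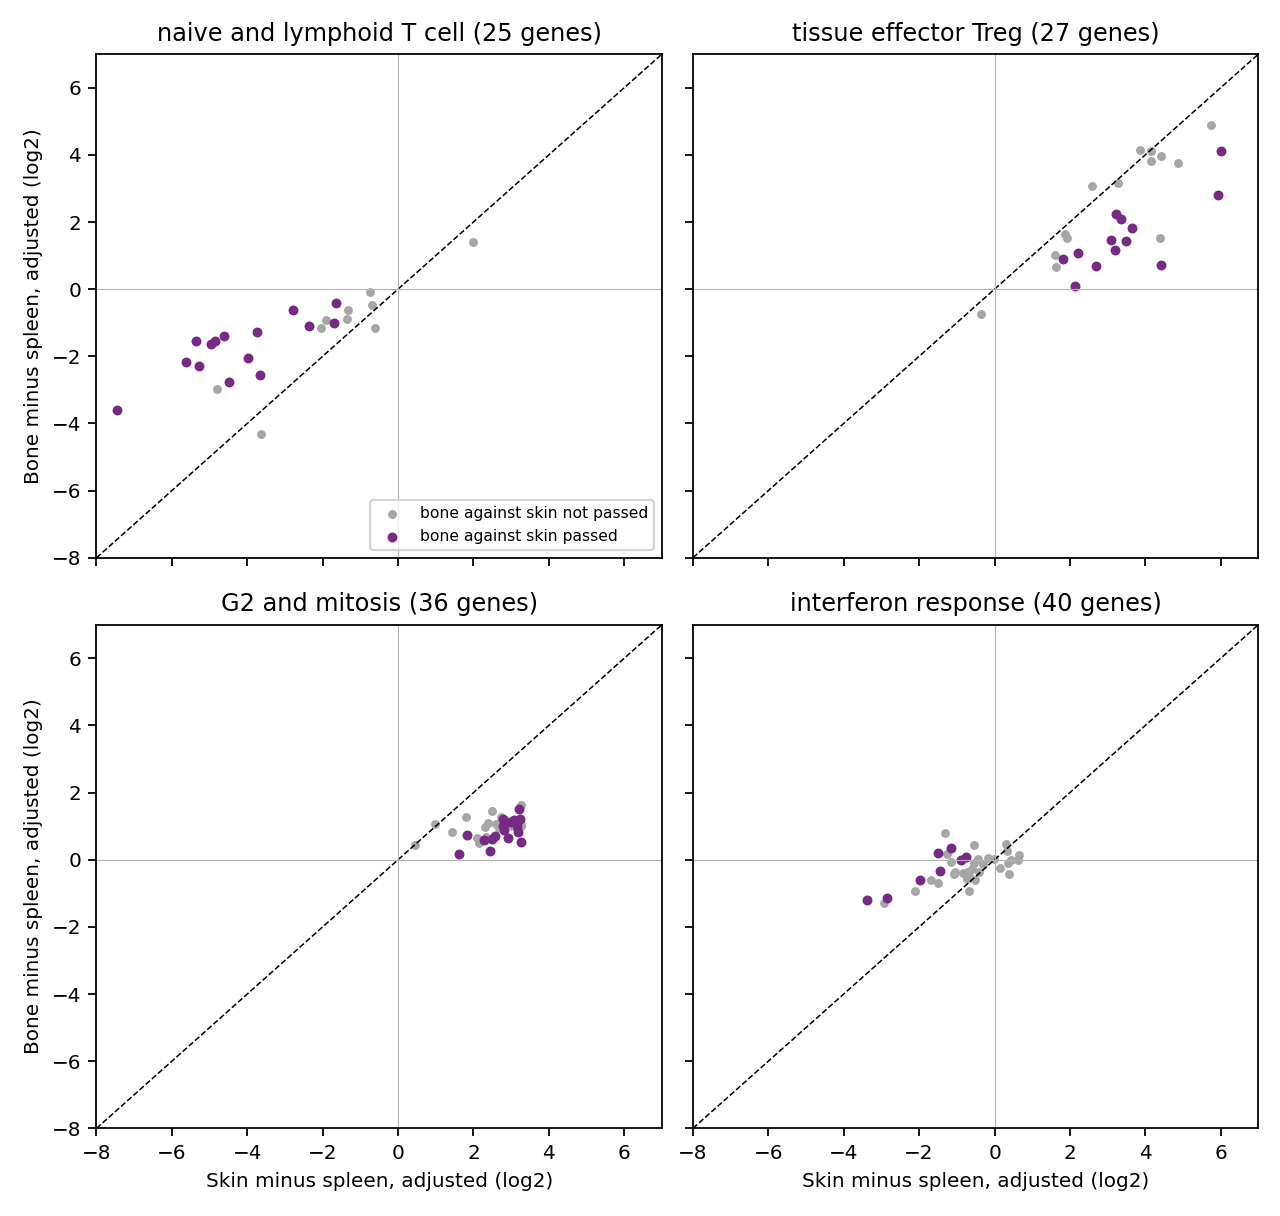
Each point is a gene of 1 of 4 lists: skin minus spleen (x) and bone minus spleen (y), both adjusted for naming style on the log2 scale. Skin is set against Endo-style spleen and bone against Tregs-style spleen. The dashed line marks equal differences and purple marks genes that passed for bone against skin. Most naive genes lie below 0 on both axes and further down for skin. Most effector genes lie above 0 and further up for skin, and the 8 interferon genes that passed lie above the line.

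Adhesion molecules split between the tissues. Of 28 tested genes of integrins and adhesion, 4 were higher in bone (among them Itga4, Itgb1 and Itga6) and 7 in skin (Gcnt1, Itgb8, Itgae, Itga3, Itgav, Icam1, Cd44), against 3.56% and 4.55% of all genes, with a median of 0.05. Itga4 encodes the alpha 4 chain that pairs with Itgb1 to bind VCAM1 on vessels and with Itgb7 to bind the gut addressin (chr2:79255426-79333123, plus strand). It counted 926, 1010 and 1095 CPM in bone and 103, 119 and 136 in skin. Muscle held 641, 858 and 870.5 and spleen 961, 916 and 1330 in Tregs style and 664, 696 and 976 in Endo style, so that skin alone was low. The adjusted difference was 2.62 ± 0.25 (adjusted p = 8.4e-07), a 6.16-fold difference, and Itga4 shares 8.04% of its exonic bases with Cerkl on the other strand. The partner chain Itgb1 counted 616, 611 and 649 CPM in bone and 218, 285 and 286 in skin (1.05 ± 0.23, adjusted p = 0.0067). The other partner, Itgb7, counted 586, 519.5 and 490.3 and 952, 588 and 571 and did not pass (0.17 ± 0.32, adjusted p = 0.8). Itga6, a laminin receptor chain, counted 175, 178 and 180.2 CPM in bone and 93.5, 78.3 and 90.8 in skin (0.84 ± 0.18, adjusted p = 0.0051).

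On the skin side, Itgae (CD103), which binds E-cadherin on epithelium, counted 229, 164 and 168 CPM in bone and 776, 612 and 524 in skin. Every skin library held more than the highest bone library (-1.49 ± 0.30, adjusted p = 0.0039). Itgb8, whose product releases active TGF-beta, counted 137, 99.7 and 129.5 CPM in bone and 263, 369 and 305 in skin (-1.95 ± 0.28, adjusted p = 0.00015). Its alpha chain partner Itgav differed by -0.92 ± 0.26 (adjusted p = 0.029). Gcnt1, an enzyme that builds the sugar core of selectin ligands, counted 61.9, 54 and 32.7 CPM in bone, 281, 258 and 263 in skin and 5.79 to 12 in spleen. Both tissues were above spleen, and the adjusted difference was -2.01 ± 0.34 (adjusted p = 0.00098). Fut7, another enzyme for selectin ligands, and their scaffold Selplg did not pass (0.85 ± 0.53 and -0.09 ± 0.25). Without bone b or without bone c, 4 genes of the list passed for skin in place of 7.

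Among 23 chemokine receptor genes tested, 2 were higher in bone (Cxcr5 and Cxcr3) and 5 in skin (among them Ccr8, Cxcr4, Gpr183 and Ccrl2), with a median of -0.05, against 3.56% and 4.55% of all genes. Unadjusted counts were 4 and 8 (8.76% and 9.26% of all genes) with a median of -0.77, and without spleen 3 the adjusted counts were 4 and 5. Cxcr3, the receptor for interferon-induced chemokines, counted 74.4, 66 and 68 CPM in bone and 30.6, 35.8 and 26.9 in skin, and muscle had 113, 85.3 and 99.3. Its difference was 1.61 ± 0.26 (adjusted p = 0.00051). Ccr8, a receptor of tissue Tregs (chr9:120092114-120094906, plus strand), counted 106, 69.5 and 54 CPM in bone, 300.5, 319 and 301 in skin and 25.7 to 29.5 in spleen. The 3 skin libraries lay close together, far above all bone libraries (-2.04 ± 0.26, adjusted p = 4.2e-05). Gpr183, which follows oxysterols, differed by -1.38 ± 0.18 (adjusted p = 6e-05) and Ccrl2 by -1.21 ± 0.31 (adjusted p = 0.018). Cxcr4, the receptor for the marrow chemokine Cxcl12, depends on the fit: it counted 351, 267 and 312 CPM in bone and 445, 465 and 421 in skin, with an unadjusted difference of -0.52 ± 0.36 (adjusted p = 0.36) and an adjusted one of -1.53 ± 0.33 (adjusted p = 0.0082). With the 6 bone and skin libraries alone Cxcr4 passed at -0.52 (adjusted p = 0.0028). The skin-homing receptors Ccr4 and Ccr10 did not pass, at 185, 150.0 and 143 CPM in bone and 199, 188 and 201 in skin for Ccr4 and at 3.38, 2.58 and 4.8 and 14.1, 9.96 and 10.7 for Ccr10. For both, every skin library lay above the bone libraries, and 43% of all genes tested had no overlap. Ccr2 did not pass after adjustment (-0.44 ± 0.30, adjusted p = 0.41) but did before it (-1.18 ± 0.28, adjusted p = 0.0079).

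**Figure D4:**
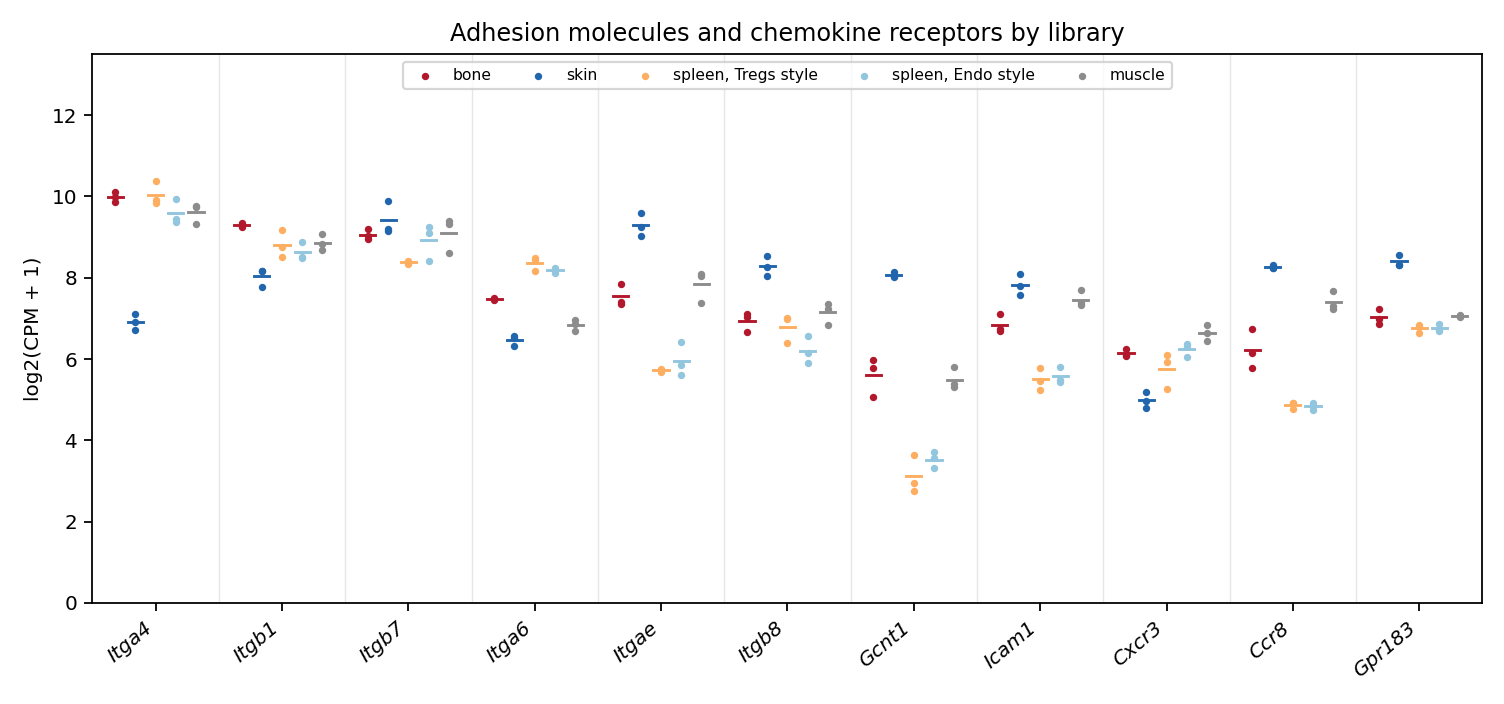
Level of 11 adhesion and chemokine receptor genes on a log2(CPM + 1) axis; a point is 1 library and a bar the mean of its group's points. Itga4 is low in the skin libraries alone (103, 119 and 136 CPM), whereas Itgae, Gcnt1 and Ccr8 are highest in skin and lowest in spleen.

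The effector programme of tissue Tregs was present in both tissues, and many of its genes were higher in skin. Of 27 genes tested, 0 were higher in bone and 13 in skin, against 3.56% and 4.55% of all genes. Without adjustment it was 0 and 17 (8.76% and 9.26% of all genes). The median was -0.97. Compared with spleen of the same naming style, 23 were higher in bone and 26 in skin (8.48% and 15% of all genes). Without spleen replicates 1 and 2, 9 passed for skin. Nfil3, a transcription factor also tied to the circadian clock (chr13:52967209-52981073, minus strand), counted 74.7, 61.4 and 47.5 CPM in bone and 299, 299 and 274 in skin. Spleen held 30.5, 48.3 and 33.3 in Tregs style and 14.8, 12.1 and 13.9 in Endo style, a style difference of 1.45. The adjusted difference of -3.70 ± 0.26 was the most negative of the genes named (adjusted p = 1.1e-08), and the unadjusted one was -2.25 ± 0.42 (adjusted p = 0.0029). Icos, a costimulatory receptor, counted 984, 801 and 737 CPM in bone and 2330, 2312 and 2557 in skin (-1.83 ± 0.22, adjusted p = 2e-05). Batf, an AP-1 family factor of effector Tregs, counted 41.9, 35.5 and 23.8 and 152, 129 and 93.2 (-2.03 ± 0.33, adjusted p = 0.00062). Bone overlapped the spleen, at 24.4 to 39.7 CPM, and skin lay above both. Prdm1 (Blimp-1) differed by -1.61 ± 0.25, Irf4 by -0.91 ± 0.23, the costimulator Tnfrsf9 by -1.27 ± 0.23 and Rora by -0.97 ± 0.23, all passing. Penk, the precursor of enkephalins, counted 100.5, 69.8 and 83.7 CPM in bone and 375, 400.0 and 255 in skin (-2.01 ± 0.28, adjusted p = 9.8e-05).

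Several hallmark genes of tissue Tregs did not pass. Il1rl1, the IL-33 receptor, counted 739, 604 and 614 CPM in bone and 1048, 1164 and 1086 in skin against 46.2 to 82.7 in spleen. Skin was above bone in every library, by -0.75 ± 0.20 without adjustment (adjusted p = 0.011) and by -0.33 ± 0.24 with it (adjusted p = 0.45). Gata3 differed by -0.60 ± 0.22 (adjusted p = 0.091), Klrg1 by -0.09 ± 0.29 (adjusted p = 0.89) and the cytotoxic enzyme Gzmb by -0.86 ± 0.67 (adjusted p = 0.5). Gzmb counted 374, 266 and 238 CPM in bone and 1041, 965 and 802 in skin and passed without adjustment (-1.68 ± 0.48, adjusted p = 0.03). Bhlhe40, a repressor of the clock and of cytokine genes, shows the reverse: it counted 364, 312 and 332 CPM in bone and 459, 476 and 434 in skin, and its difference of -2.04 ± 0.27 (adjusted p = 5.6e-05) is mostly the spleen style difference of 1.60. Unadjusted, Bhlhe40 differed by -0.44 (adjusted p = 0.58, and 0.0037 with the 6 bone and skin libraries alone).

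Core identity genes of Tregs were mixed. Foxp3 counted 767, 729 and 752 CPM in bone and 829.6, 816 and 718 in skin, overlapping, with a difference of -0.07 ± 0.20 (adjusted p = 0.87) and a spleen style difference of 0.00. Foxp3 shares 31.5% of its exonic bases with other genes, on both strands. Ikzf2 (Helios) counted 1730, 1602 and 1662 CPM in bone and 1856, 2002 and 2133 in skin (-0.39 ± 0.20, adjusted p = 0.25). Il2ra (CD25) counted 1167, 959 and 919 and 1509, 1879 and 1726, higher in each skin library, but missed the threshold after adjustment (-0.71 ± 0.23, adjusted p = 0.054) and passed before it (adjusted p = 0.0042). Of the 20 identity genes tested, 3 were higher in bone (Gpr83, Izumo1r, Nrp1) and 5 in skin (Ctla4, Il10, Itgae, Tnfrsf4, Tnfrsf18). These compare with 3.56% and 4.55% of all genes. Without bone b the count for skin was 3. Gpr83, a peptide receptor of resting Tregs, counted 15.2, 12.7 and 23.8 CPM in bone and 1.56, 1.36 and 0.51 in skin, with spleen at 108 to 162 (4.11 ± 0.41, adjusted p = 3.4e-06). Izumo1r, the folate receptor 4 of Tregs, differed by 1.31 ± 0.21 (adjusted p = 0.00044). Nrp1, a semaphorin receptor, counted 507, 459.6 and 497 CPM in bone, 158, 175 and 158 in skin and 333 to 576 in spleen, so that skin alone was low (1.20 ± 0.24, adjusted p = 0.0035).

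Inhibitory receptors that passed were all higher in skin, 6 of 15 tested (0 in bone), against 4.55% of all genes, with a median of -0.39. Ctla4, which strips costimulatory ligands from other cells (chr1:60887000-60915832, plus strand), counted 1054, 789.5 and 770.0 CPM in bone and 2625, 2103 and 2052 in skin. Muscle lay between at 1611, 1617 and 1261, and spleen was lowest at 223 to 410.5. The adjusted difference was -1.95 ± 0.22 (adjusted p = 1.1e-05). Havcr2 (Tim-3) counted 74.2, 59.5 and 45.9 CPM in bone and 181, 140.3 and 136 in skin (-1.89 ± 0.44, adjusted p = 0.011). Tox differed by -1.07 ± 0.19, Cd274 by -0.82 ± 0.19 and Cd200r1 by -0.93 ± 0.25. Tigit differed by -1.13 ± 0.30 (adjusted p = 0.023), though leaving out any 1 of 4 libraries (bone b and c, spleen 3 and 5) ended the call, with adjusted p from 0.056 to 0.062. Pdcd1 (PD-1) and Lag3 did not pass (-0.50 ± 0.39 and -0.39 ± 0.50). Without spleen replicates 1 and 2, 2 of the 15 passed. Without bone b, bone c or spleen 5, 4 did.

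Of 33 suppressive mediators and repair factors, 6 were higher in skin (Areg, Metrnl, Jag1, Penk, Itgb8, Il10) and 1 in bone (Adam8), against 4.55% and 3.56% of all genes. Unadjusted counts were 10 and 0 (9.26% and 8.76% of all genes), and limma-voom called 2 and 0. Areg counted 212, 155 and 119.6 CPM in bone, 642, 473 and 444 in skin and 3.86 to 32.9 in spleen. The skin libraries lay above all bone libraries, with -1.68 ± 0.55 before adjustment (adjusted p = 0.054) and -3.11 ± 0.63 after it (adjusted p = 0.012). Areg passed for skin with the 6 bone and skin libraries alone. Jag1, a Notch ligand, counted 27.9, 28.2 and 20.7 CPM in bone and 74.8, 85.9 and 81.1 in skin (-2.04 ± 0.41, adjusted p = 0.0031). Metrnl, a secreted factor, counted 11.4, 12.1 and 12.9 and 48, 36.9 and 32 (-2.16 ± 0.64, adjusted p = 0.04), but leaving out any 1 of 10 libraries (bone 1, b and c, skin 1 and 2, spleen 1, 2, 3, 5 and 6) ended the call, with adjusted p from 0.05 to 0.21. Il10, the suppressive cytokine, overlapped between tissues at 70.2, 70.8 and 56.6 CPM in bone and 108, 57.2 and 76.9 in skin. Its unadjusted difference was -0.30 ± 0.52 (adjusted p = 0.75), and the adjusted one of -1.87 ± 0.53 (adjusted p = 0.046) follows from subtracting the spleen, with 13, 20.9 and 14.9 CPM in Tregs style and 4.34, 2.63 and 8.9 in Endo style. For Il10, leaving out any 1 of 9 libraries (bone 1, b and c, skin 1 and 3, spleen 1, 2, 5 and 6) ended the call, with adjusted p from 0.065 to 0.11. For Adam8, a surface protease at 119, 82 and 96.7 CPM in bone and 103, 45.7 and 72.3 in skin (1.17 ± 0.36, adjusted p = 0.049; unadjusted 0.43, adjusted p = 0.34), leaving out any 1 of 10 libraries (bone 1 and c, skin 2 and 3, spleen 1, 2, 3, 4, 5 and 6) ended the call, with adjusted p from 0.051 to 0.13. The ectoenzymes of adenosine production did not pass (Entpd1 0.15 ± 0.28, Nt5e 0.13 ± 0.24), nor did Tgfb1 (-0.15 ± 0.18).

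Receptors of the TNF family and NF-kB genes were higher in skin for 12 of 30 tested and in bone for 1, Tnfsf8, against 4.55% and 3.56% of all genes, with a median of -0.63. Tnfrsf4 (OX40), a costimulator, counted 548, 431 and 486 CPM in bone and 1292, 1634 and 1277 in skin (-1.41 ± 0.21, adjusted p = 0.00021). Cd83, a surface protein induced by NF-kB, counted 126, 121 and 142 and 398, 338 and 324 (-1.46 ± 0.21, adjusted p = 0.00013). Birc3, an inhibitor of cell death, differed by -1.37 ± 0.19 (adjusted p = 7.3e-05) and Tnfrsf18 (GITR) by -0.82 ± 0.21 (adjusted p = 0.015). In each of these 4 genes the skin libraries lay above all bone libraries. The feedback inhibitor Tnfaip3 (A20) is different: at 2004, 1800 and 1771 CPM in bone and 2093, 2202 and 2245 in skin it did not pass unadjusted (-0.23 ± 0.60, adjusted p = 0.84), and its -2.02 ± 0.44 (adjusted p = 0.013) follows from spleen levels of 1397, 1419 and 996 against 601, 173 and 332. Tnfsf8 (CD30 ligand) counted 24.7, 30.8 and 40.4 CPM in bone and 6.68, 7.92 and 10.2 in skin (1.78 ± 0.41, adjusted p = 0.011). Among survival genes, beside Bcl2 on the bone side, 9 of 25 were higher in skin, including Fas (-1.26 ± 0.31) and the BCL2 relative Bcl2a1b (-1.65 ± 0.32). Bcl2a1b shares 49.1% of its exonic bases with another gene on its strand and is uncertain.

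Many genes of the dividing cell were higher in skin, and how many passed depended on the fit. Of 36 genes of G2 and mitosis, 17 were higher in skin and 0 in bone after adjustment (median -1.70), against 6 and 0 before it (median -0.73). The shares of all genes for skin were 4.55% and 9.26%. With the 6 bone and skin libraries alone, 25 passed for skin and 0 for bone (median -0.74), against 16% of all genes for skin. The spleen styles differed by a median of 0.87 over this list, with spleen 3 above the other Endo libraries. Leaving out spleen 3 gave 29 genes for skin and leaving out bone b gave 6. Leaving out each other bone, skin or spleen library gave 7 to 20, and without both spleen 1 and 2 it was 3. Genes of G2 and mitosis are known to be repressed outside division through a TTTGAA element, the CHR, and their promoters often hold CCAAT boxes. For this reason the start regions of 3 of these genes, the 3 most different of the list, are shown. They are RefSeq windows of GRCm38.p6, 100 bases before to 30 after the start site, with TTTGAA and CCAAT in capitals on either strand (TTCAAA and ATTGG on the other strand). They lie at chr11:40733408-40733537 on the minus strand for Hmmr, chr1:191821373-191821502 on the plus strand for Nek2 and chr19:37376282-37376411 on the plus strand for Kif11.
Hmmr: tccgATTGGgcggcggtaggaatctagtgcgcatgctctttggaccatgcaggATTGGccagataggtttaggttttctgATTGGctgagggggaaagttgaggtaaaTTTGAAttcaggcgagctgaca
Nek2: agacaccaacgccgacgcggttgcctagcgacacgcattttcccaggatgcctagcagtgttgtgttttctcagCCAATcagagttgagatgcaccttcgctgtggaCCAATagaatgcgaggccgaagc
Kif11: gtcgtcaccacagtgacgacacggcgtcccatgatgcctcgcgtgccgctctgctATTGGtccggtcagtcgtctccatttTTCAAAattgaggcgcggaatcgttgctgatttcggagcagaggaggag

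Over windows of 300 bases (250 before and 50 after the start), TTTGAA on either strand stood in 21 of 31 promoters of the list (67.7%) and in 17.9% of all 32851, and CCAAT in 26 of 31 (83.9%) and 37.4%. The printed Hmmr window holds TTTGAA from base 8 after the start and the Kif11 window from base -19, whereas the Nek2 window holds only CCAAT. These are matches of letters. Hmmr, a spindle protein, counted 25.8, 26.5 and 23.7 CPM in bone, 43.3, 37.1 and 40.3 in skin, and in spleen 8.04, 17.6 and 27.4 (Tregs style) and 3, 1.4 and 7.74 (Endo style). Its unadjusted difference of -0.67 ± 0.70 did not pass (adjusted p = 0.57, and 0.006 with the 6 bone and skin libraries alone) and the adjusted -2.73 ± 0.70 did (adjusted p = 0.031), but leaving out any 1 of 10 libraries (bone 1, b and c, skin 1, 2 and 3, spleen 1, 2, 5 and 6) ended the call, with adjusted p from 0.05 to 0.082. Kif11, a spindle motor, counted 62.6, 67.3 and 74.9 and 107, 116 and 131 (-2.25 ± 0.57, adjusted p = 0.032; unadjusted -0.79, adjusted p = 0.36), but leaving out any 1 of 9 libraries (bone 1, b and c, skin 1, 2 and 3, spleen 1, 2 and 6) ended the call, with adjusted p from 0.051 to 0.073. For Nek2, a centrosome kinase at 13.9, 5.05 and 5.57 and 25.4, 12.2 and 17.3 CPM (-2.36 ± 0.73, adjusted p = 0.049; unadjusted -1.16, adjusted p = 0.15), leaving out any 1 of 8 libraries (bone b and c, skin 1 and 3, spleen 1, 2, 5 and 6) ended the call, with adjusted p from 0.074 to 0.12. Kif11 and Nek2 also passed for skin with the 6 bone and skin libraries alone. Mki67, the usual mark of cycling cells, counted 563, 581 and 630.1 CPM in bone and 457, 588 and 576 in skin, overlapping, and did not pass (-1.54 ± 0.94, adjusted p = 0.37).

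Genes of G1 and S phase leaned to skin both ways: 9 of 32 passed for skin after adjustment (4.55% of all genes) and 14 before (9.26%), and 0 for bone in both. Leaving out spleen 3 gave 16 for skin, and leaving out spleen 1 and 2 together gave 3. Rrm1, which makes deoxynucleotides, counted 119, 87.9 and 83.9 CPM in bone and 186, 172 and 186 in skin (-1.36 ± 0.26, adjusted p = 0.0021). Uhrf1, which maintains DNA methylation, counted 41.4, 29.2 and 29.8 and 71.2, 60.5 and 58.7 (-1.41 ± 0.30, adjusted p = 0.0052). The groups were apart for both. Histone H4 genes were also among the 12 highest in skin: Hist1h4a counted 5.17, 5.13 and 8.2 CPM in bone and 40.6, 19.2 and 26.5 in skin (-2.99 ± 0.66, adjusted p = 0.0094). Hist1h4j (-2.78 ± 0.71) and Hist1h4f (-2.48 ± 0.69) followed. These copies are nearly identical in sequence, so how reads were shared among them is uncertain. For Hist1h4j leaving out any 1 of 5 libraries (bone 1, b and c, spleen 1 and 2) ended the call, with adjusted p from 0.053 to 0.068, and for Hist1h4f leaving out any 1 of 11 libraries (bone 1, b and c, skin 1, 2 and 3, spleen 1, 2, 4, 5 and 6) ended the call, with adjusted p from 0.053 to 0.11.

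The remaining genes among the 12 highest in skin have varied roles. Mreg, an adaptor of organelle transport (chr1:72159442-72212307, minus strand), counted 6.76, 8.46 and 5.88 CPM in bone, 40.7, 50.7 and 47.1 in skin and 0 to 2.21 in spleen. The adjusted -3.21 ± 0.90 passed (adjusted p = 0.036), but leaving out any 1 of 9 libraries (bone 1, b and c, skin 1, 2 and 3, spleen 1, 2 and 5) ended the call, with adjusted p from 0.052 to 0.21. Gem, a small GTPase (chr4:11704457-11714752, plus strand), counted 153, 151 and 118 CPM in bone and 388, 387 and 330.4 in skin (-2.57 ± 0.29, adjusted p = 8.6e-06). Gla, a lysosomal galactosidase, counted 29.4, 27.5 and 21.2 and 103, 78.3 and 77.5 (-2.45 ± 0.35, adjusted p = 0.00013). The spindle protein Tacc3 differed by -2.32 ± 0.40, the kinase Cdc42bpb by -2.31 ± 0.41, the trafficking protein Sh3bp4 by -2.27 ± 0.49 and Ubald2 by -2.24 ± 0.28. Passing without adjustment was a condition of being among the 12. Their unadjusted differences were smaller, since the spleen was higher in Tregs style for each, by 0.35 (Hist1h4j) to 1.45 (Nfil3).

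For immediate early and AP-1 genes the adjustment turned the sign of the median difference. Before it, 6 of 30 were higher in bone and 4 in skin with a median of 0.26, against 8.76% and 9.26% of all genes. After it, 2 were higher in bone and 10 in skin with a median of -0.82, against 3.56% and 4.55% of all genes. The spleen styles differed by a median of 0.75. Leaving out 1 library left 0 to 3 for bone and 8 to 11 for skin. Fosl2, an AP-1 factor, counted 556, 473 and 378 CPM in bone and 856, 632 and 671 in skin, with 81.2, 94 and 68.6 in spleen of Tregs style and 43.5, 13.9 and 29.7 of Endo style. In the 15 libraries it passed only after adjustment (-0.62 ± 0.50, adjusted p = 0.44, to -2.10 ± 0.40, adjusted p = 0.0049). Junb did the same (-0.52 ± 0.42, adjusted p = 0.43, to -1.72 ± 0.34, adjusted p = 0.0043), as did the early activation receptor Cd69 (-0.00 ± 0.34, adjusted p = 1, to -1.08 ± 0.25, adjusted p = 0.0099). With the 6 bone and skin libraries alone Fosl2 (adjusted p = 0.0045) and Junb (adjusted p = 0.011) also passed for skin, and Cd69 did not (adjusted p = 0.99). Egr1, a growth response factor, counted 258, 269 and 248 CPM in bone and 69.1, 59.9 and 78.5 in skin and passed only before adjustment (1.90 ± 0.34, adjusted p = 0.0014; after it 1.01 ± 0.31, adjusted p = 0.052). Egr2 at 12.7, 17.2 and 9.36 and 4.3, 2.6 and 5.74 CPM passed both ways (1.45 ± 0.45, adjusted p = 0.047), but leaving out any 1 of 8 libraries (bone 1 and b, skin 1 and 2, spleen 1, 2, 4 and 6) ended the call, with adjusted p from 0.066 to 0.14. For Btg2, which curbs proliferation (0.89 ± 0.25, adjusted p = 0.032), leaving out any 1 of 9 libraries (bone 1, b and c, skin 2 and 3, spleen 1, 2, 5 and 6) ended the call, with adjusted p from 0.053 to 0.11. Myc was higher in skin both ways, at 57.6, 46.9 and 45.7 CPM in bone and 74.7, 91.9 and 81.2 in skin (-1.09 ± 0.22, adjusted p = 0.0031).

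Interferon response genes also leaned to bone. Of 40 tested, 8 were higher in bone and 0 in skin after adjustment (3.56% and 4.55% of all genes), and 16 and 1 before it (8.76% and 9.26%), with medians of 0.45 and 0.83. Iigp1, an immune GTPase, counted 30.1, 27.4 and 28.2 CPM in bone and 6.59, 7.13 and 5.61 in skin (2.21 ± 0.44, adjusted p = 0.0047). Ifit1, which binds foreign RNA, counted 45.8, 40.2 and 39.5 and 9.15, 21.6 and 18 (1.51 ± 0.37, adjusted p = 0.013). Irgm1 counted 62.5, 56.7 and 75.4 CPM in bone and 24.3, 30.6 and 29.1 in skin, with 81.7 to 113 in spleen (1.39 ± 0.24, adjusted p = 0.00086). Oas3, a sensor of double-stranded RNA, counted 27.1, 34.3 and 39.6 and 9.79, 18.4 and 12.9 (1.71 ± 0.34, adjusted p = 0.0028). For these 4 genes bone lay above skin in every library. For Usp18, a brake on interferon signalling (1.72 ± 0.45, adjusted p = 0.021), leaving out any 1 of 6 libraries (bone c, skin 3, spleen 1, 2, 4 and 5) ended the call, with adjusted p from 0.05 to 0.074. Irf7 (0.24 ± 0.29) and Isg15 (-0.44 ± 0.69) did not pass. Against spleen, 0 of the 40 were higher and 6 lower in bone (8.48% and 6.32% of all genes), and 2 higher and 21 lower in skin (15% and 12.8%). Without bone c or spleen 5, 5 passed for bone, and without spleen 1 and 2 together 4 did.

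In metabolism, glycolysis and hypoxia genes were higher in skin for 6 of 32 and in bone for 2 (4.55% and 3.56% of all genes), and 17 and 1 before adjustment (9.26% and 8.76%). Hif1a, the hypoxia factor, counted 1153, 952 and 998 CPM in bone and 1304, 2087 and 1934 in skin (-1.46 ± 0.29, adjusted p = 0.0035; unadjusted -0.78, adjusted p = 0.05, not passed). Hif1a passed for skin with the 6 bone and skin libraries alone. Pkm, which makes pyruvate, counted 626, 496 and 432 and 1150, 1121 and 998 (-0.86 ± 0.20, adjusted p = 0.01). Slc16a3, a lactate exporter, counted 54.2, 35 and 43.3 and 107, 107 and 96.4 (-1.43 ± 0.33, adjusted p = 0.0096). Skin lay above bone in each library of these 3 genes. Pdk1, which closes the route from pyruvate into the mitochondrion, was higher in bone at 63.6, 93.2 and 76.5 CPM against 41.8, 39.6 and 49.2 (1.06 ± 0.25, adjusted p = 0.011), though leaving out spleen 2 ended the call, with an adjusted p of 0.05. For the glucose transporter Slc2a3 (0.85 ± 0.26, adjusted p = 0.047; unadjusted 0.23, adjusted p = 0.55), leaving out any 1 of 9 libraries (bone 1, b and c, skin 2 and 3, spleen 1, 2, 4 and 5) ended the call, with adjusted p from 0.074 to 0.15. Leaving out bone c left 4 of the list for skin. Nuclear respiratory chain genes mostly lost their calls to the adjustment: 22 of 30 were higher in skin before it and 2 after it (Cox6c and Cox5a), with medians of -0.80 and -0.45, against 9.26% and 4.55% of all genes. The 2 became 1 without bone c, skin 2 or spleen 1, 2, 3 or 5, and 4 without spleen 4. Cox6c counted 67.2, 64.2 and 56.6 CPM in bone and 140.5, 119.5 and 112 in skin (-1.10 ± 0.21, adjusted p = 0.0024).

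Stress genes also leaned to skin. Of 25 genes of the unfolded protein and amino acid response, 8 were higher in skin and 0 in bone (median -0.83), against 4.55% and 3.56% of all genes, which is the background of the redox, heat shock and lamin counts too. Slc3a2, the heavy chain of amino acid transporters, counted 116, 97.4 and 114 CPM in bone and 243, 230.5 and 233 in skin (-1.34 ± 0.20, adjusted p = 0.00022). Hspa5, the main chaperone of the endoplasmic reticulum, counted 439, 386 and 406 and 546, 573 and 527 and passed only after adjustment (-0.97 ± 0.19, adjusted p = 0.0023). Without bone c or spleen 5 the count was 5. Of 21 redox genes 3 were higher in skin, among them thioredoxin (Txn1) at 50.7, 42.8 and 49.8 CPM in bone and 124, 97.2 and 113 in skin (-1.09 ± 0.21, adjusted p = 0.002) and Gpx1 (-0.96 ± 0.20, adjusted p = 0.0049). Heat shock genes numbered 3 of 18 for skin, and 1 to 8 on leaving out 1 library (8 without spleen 3 or spleen 6). Of 13 lamin and envelope genes 3 were higher in skin, with Lmnb1 at 224, 201 and 206 CPM in bone and 506, 410.0 and 476 in skin (-1.45 ± 0.20, adjusted p = 6.9e-05), while Lmna did not pass (-0.30 ± 0.48, adjusted p = 0.77). Anxa1, an anti-inflammatory annexin, was called higher in bone (1.80 ± 0.46, adjusted p = 0.018) although it counted 41.9, 34.6 and 27.2 CPM in bone and 62.3, 42.7 and 51.3 in skin. Its unadjusted difference had the other sign (-0.59 ± 0.55, adjusted p = 0.51), and spleen held 0.285 to 5.5 CPM. For Anxa1, leaving out either of 2 libraries (spleen 1 and 6) ended the call, with adjusted p from 0.057 to 0.058.

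**Figure D5:**
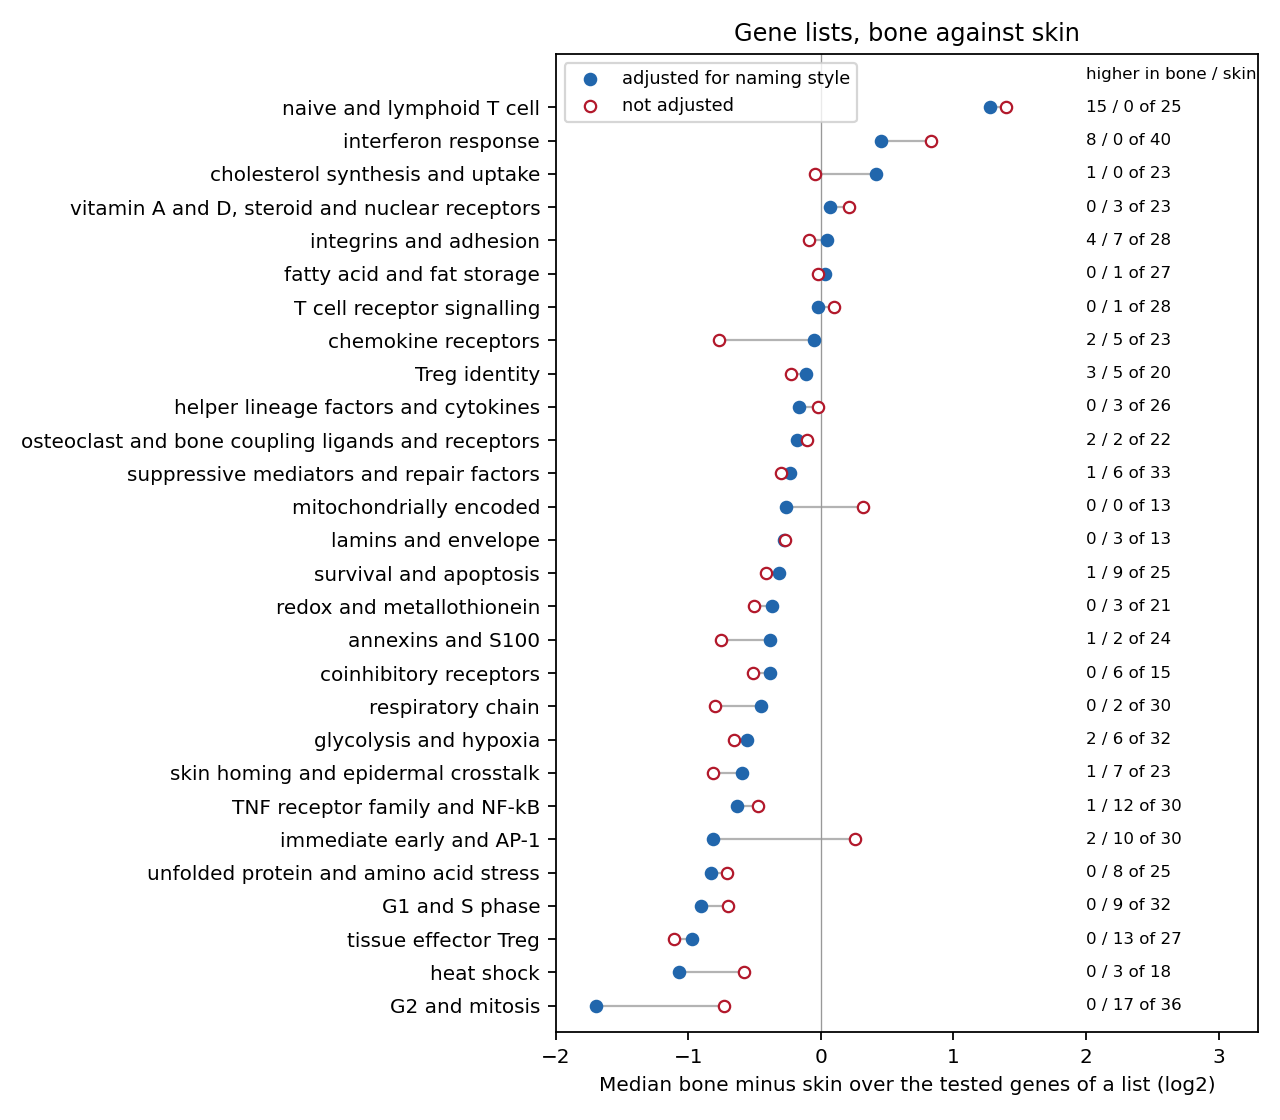
Median bone minus skin difference (log2) over the tested genes of each of 28 lists, adjusted (filled) and not adjusted (open), with the number of genes passing for bone and for skin after adjustment at the right. Naive and lymphoid genes stand at the top with 15 higher in bone and 0 in skin, G2 and mitosis at the bottom with 0 and 17, and the immediate early list is the one with the widest gap between its 2 medians.

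Of 22 tested factors by which T cells speak to bone cells, 2 were higher in bone (Csf1, Smad3) and 2 in skin (Ctla4, Il10), 5 and 4 before adjustment. The shares of all genes were 3.56% and 4.55% after adjustment and 8.76% and 9.26% before it. Csf1, the growth factor of macrophages and osteoclast precursors (chr3:107741048-107760469, minus strand), counted 40, 35 and 35.1 CPM in bone and 13.8, 9.28 and 10.7 in skin. Muscle held 24.6, 31.7 and 33.6 and spleen 21.7 to 47, so that skin was the low group (1.65 ± 0.35, adjusted p = 0.0043). Smad3, a carrier of TGF-beta signals, counted 173, 175 and 171 and 128, 116 and 109 (0.68 ± 0.20, adjusted p = 0.036), but leaving out any 1 of 9 libraries (bone 1, b and c, skin 2 and 3, spleen 1, 2, 4 and 5) ended the call, with adjusted p from 0.063 to 0.12. Tnfsf11 (RANKL), the osteoclast differentiation factor, counted 28, 26.7 and 18.2 CPM in bone and 7.78, 6.56 and 10.1 in skin and passed before adjustment (1.59 ± 0.30, adjusted p = 0.00096) but not after it (1.10 ± 0.37, adjusted p = 0.072). Of 23 genes of skin homing and crosstalk with epidermis, 7 were higher in skin (Areg, Jag1, Ccr8, Ahr, Itgae, Crlf2, Rora) and 1 in bone (Itga6). The shares of all genes were 4.55% and 3.56%. Ahr, a sensor of aromatic compounds, counted 80, 82.2 and 69.6 CPM in bone, 184, 222 and 216 in skin and 28.1 to 37.5 in spleen (-1.52 ± 0.21, adjusted p = 7.6e-05). Its target Tiparp differed by -1.38 ± 0.24 (adjusted p = 0.00083), but by -0.55 ± 0.24 without adjustment (adjusted p = 0.13). Crlf2, a chain of the receptor for the epithelial cytokine TSLP, counted 31.9, 33.5 and 29.4 and 65.9, 66.6 and 52.5 (-0.99 ± 0.28, adjusted p = 0.029).

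Among passing genes, 10 of 556 higher in bone and 16 of 711 higher in skin differed from spleen in opposite directions. Over all genes, 8.48% were higher and 6.32% lower than spleen in bone, and 15% and 12.8% in skin. Bone is set against Tregs-style spleen and skin against Endo-style spleen, so the 2 baselines differ in style. At a mean log2 CPM of 3 or more, without clone-named and similar genes, 8 and 11 remained. The spleen style difference passed for 0 and 4 of these, against 4.74% of all genes. On the bone side, Cbx7, a Polycomb protein, counted 118, 143 and 157 CPM in bone, 54.3, 51.5 and 48.3 in skin and 75.4 to 103 in spleen, with differences from spleen of 0.53 in bone and -0.62 in skin. Bcorl1, a transcriptional corepressor, counted 40.5, 39.3 and 42.3 and 13.6, 14.5 and 17 CPM, with 0.92 in bone and -0.90 in skin. The sorting nexin Snx11 (0.90 in bone and -0.75 in skin), Rhbdd2 (0.85 in bone and -0.71 in skin) and Irf2bpl (0.48 in bone and -0.60 in skin) did likewise. On the skin side, Cox6b1, a subunit of cytochrome oxidase, counted 27.3, 23.3 and 16.9 CPM in bone, 109.8, 79.8 and 69.9 in skin and 34.9 to 48.2 in spleen, with -0.80 in bone and 0.90 in skin. Rps27l, a target of p53, counted 20.8, 18.2 and 10.8 and 42.9, 53.3 and 49.6 CPM, with -0.95 in bone and 0.96 in skin. Myb, a factor of proliferating lymphocytes, counted 27.1, 32.7 and 20.7 CPM in bone and 41, 61.4 and 53.9 in skin (-0.71 in bone and 1.33 in skin). Its spleen levels were 39, 48.8 and 44.7 CPM in Tregs style and 17.7, 16.3 and 27.6 in Endo style. That style difference of 1.10 passed (adjusted p = 0.0082). Myb did not pass without adjustment in the 15 libraries (adjusted p = 0.065) but did with the 6 bone and skin libraries alone (adjusted p = 0.0021). Chka, a choline kinase, is tied to the style: it counted 28.6, 25.9 and 28.7 CPM in bone and 23.8, 27.4 and 22.7 in skin, overlapping, while spleen held 61.7, 40.1 and 40.9 in Tregs style and 17.7, 13.3 and 15 in Endo style. Chka did not pass unadjusted (adjusted p = 0.84). Depth also differed between the bone and skin libraries, and with all counts thinned to the smallest library 1282 genes passed, 1128 of them among the 1267. The share of Yam1 differed too, and its part in these results was not tested.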

How the data were processed

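Bulk RNA sequencing measured sorted Tregs, and the deposited values are raw counts per gene, which the authors made by alignment to GRCm38 and read counting (STAR, featureCounts and limma, no versions, per the submitters' processing notes). Annotation and strand setting are not stated there.

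Of 46078 genes, 15617 passed filterByExpr (minimum count 10). Counts of 15 libraries (bone, skin, muscle, spleen) were TMM-scaled and fitted by edgeR 4.0.16 (R 4.3.3; robust quasi-likelihood F test, Benjamini-Hochberg FDR 0.05) with group and naming style, which only spleen holds in both forms. SE is derived from F. P-values reflect the spread between pooled libraries. Positions came from GENCODE M21, and the test was tested on simulated data. Genes named were the 12 most different each way that passed adjusted and unadjusted, at mean log2 CPM 3 or more, with no overlap and a spleen style difference at most 0.5 of theirs in the same direction, plus up to 3 a direction of each list, 15 fixed genes and 5 a direction opposite to spleen. Further list members were chosen after their values were seen. Members and the 28 gene and 17 marker lists were chosen with earlier results of these data known. Alternatives are in the closing section. Some genes of the lists are not reported here.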

Additional observations from a re-analysis of the deposited data

Results flagged for a closer look

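In single spleen libraries 4 of 38 genes checked lay apart from the other 5 by Dixon's criterion, which flags about 1 in 20 groups by chance. Card6 was at 158.3 CPM in spleen 4, the others at 105.5 to 124.2. Evl was at 187.9 in spleen 4, the others at 152.9 to 159.6. Havcr2 was at 5.071 in spleen 5, the others at 1.754 to 2.919. Il1rl1 was at 82.73 in spleen 1, the others at 46.23 to 52.76.

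Bone and skin differed from spleen in opposite directions for 10 of the 556 genes higher in bone and 16 of the 711 higher in skin. The 5 named in each direction are given. The adjusted bone minus skin difference was 1.818 for Bcorl1, 1.655 for Snx11, 1.566 for Rhbdd2, 1.145 for Cbx7 and 1.089 for Irf2bpl. It was -2.993 for Hist1h4a, -2.046 for Myb, -1.905 for Rps27l, -1.697 for Cox6b1 and -1.461 for Chka. Bone was set against Tregs-style spleen and skin against Endo-style spleen. In the 15 libraries Myb and Chka did not pass without adjustment.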

How the results depend on the processing

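Counts of passing genes as total, higher in bone and higher in skin were 1267, 556 and 711. They were 2814, 1368 and 1446 without the naming style term, and 4272, 2057 and 2215 with the 6 bone and skin libraries alone. Limma-voom gave 843, 352 and 491, FDR 0.01 gave 493, 215 and 278, and a test against a log2 difference of 1 gave 72, 53 and 19. Without spleen replicates 1 and 2 they were 705, 307 and 398, with 522 of the 1267 kept. That fit leaves spleen replicate 3 as the only Endo-style spleen library, on which every adjusted value for skin then rests. The causes of the changes in this paragraph were not tested. Upper-quartile scaling turned the split to 672 and 560, and DESeq2 gave 724 and 1057. Leaving out 1 library gave totals from 777 (without spleen 2) to 1705 (without spleen 3), with 325 to 668 for bone and 452 to 1037 for skin. Totals were 842 without skin 2, those for bone 350 without skin 3, 351 without spleen 1 and 353 without spleen 5, and those for skin 463 without bone b and 453 without skin 2. The other settings (no muscle, heart added, RLE, no filter, CPM above 1, no small RNA, and thinned counts, the last chosen after seeing the data) stayed within 1.5 times.

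With the column number as a replicate block 1189 genes passed, 519 for bone and 670 for skin. The correlations of same-numbered bone and skin libraries were 0.0805, 0.0337 and 0.00394, under the 0.1 asked for. Those of unlike numbers ran from -0.062 to 0.041. With so few libraries, such correlations cannot show whether equal numbers mark pairs.

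Of 118 genes followed, 110 passed and 20 of these did so under every alternative, 11 of the 12 highest in bone and 4 of the 12 highest in skin. With the stricter thresholds left aside, 52 did, 12 and 5 of those sets. Genes named outside the 118, such as Klf3, Icos, Itgav and Crlf2, were not followed singly, so whether their calls hold on leaving out a library is not given. The sign turned for Anxa1 (-0.5881 without the style term and -0.5906 with 6 libraries) and Chka (0.1724 and 0.1722). Depth is lowest in the Endo-style spleen, on which every adjusted value for skin rests.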
